A study of Mus musculus with 18 samples.

Results

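Transcripts of 10 genes that neutrophils use were followed in 18 K7M2 tumors. The genes were taken by name, with earlier results of these data known. They were S100a8, S100a9, Csf3r, Cxcr2, Retnlg, Mmp8, Ly6g, Lcn2, Il1r2 and Trem1, and all 10 had a row among the 20878 genes measured. K7M2 is an osteosarcoma line of Balb/c origin, and each tumor was one graft in a different mouse. All cells carried an shRNA, either a control (ATRXCT) or one against Atrx (ATRXKD), a chromatin remodeler. The hosts were Balb/c mice, which are syngeneic to the line, or NSG mice (NOD background with the Prkdc scid and Il2rg tm1Wjl alleles), which have no mature T, B or NK cells but keep myeloid cells. There were 4 Balb/c ATRXCT, 4 Balb/c ATRXKD, 5 NSG ATRXCT and 5 NSG ATRXKD tumors. The study's methods describe young females of both strains and whole cages that received the same cells. The labels do not name the cage of a mouse, and an effect of housing cannot be told apart from one of the shRNA.

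Neutrophils are short-lived granulocytes of the bone marrow and blood that enter inflamed tissue and many tumors. Granulocyte colony-stimulating factor, acting on the receptor encoded by Csf3r, drives their production, and chemokines acting on Cxcr2 draw them out of the marrow and into tissue. Their granule proteins are made in a fixed order while the cells mature, whereas S100a8, S100a9, Cxcr2, Il1r2 and Retnlg mark late stages. Values are FPKM, fragments scaled by transcript length and library size, and in the bulk RNA of a tumor, fewer neutrophils and less RNA per neutrophil cannot be told apart.

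The estimated depth was 15000000 to 25400000 fragments per tumor, and between 16108 and 18212 genes were above 0. Atrx itself was lower in ATRXKD tumors, with a difference of -0.34 (SE 0.36) on the log2 (FPKM + 1) scale in Balb/c mice (limma, adjusted p = 0.999) and of -0.74 (SE 0.22) in NSG mice (adjusted p = 0.0610). Neither passed the test and the groups overlapped in both hosts, so Atrx could not check the labels. Of the bone genes checked, Runx2 and Col1a1 were expressed, while Sp7, Ibsp and Bglap lay at or near 0 in every group. RNA of skin stood out in Balb/c ATRXCT mouse 45 and Balb/c ATRXKD mouse 60, where the 10 keratinocyte genes summed to 110 and 19.0 FPKM against 2.59 to 3.42 FPKM in the other Balb/c tumors. It was also raised in NSG ATRXKD mice 26, 27 and 29, at 14.5 to 26.1 FPKM. Values rose with transcript length, by 0.15 to 0.29 log2 per doubling, in 6 libraries: Balb/c ATRXCT mice 43 and 45, Balb/c ATRXKD mice 56 and 60, NSG ATRXCT mouse 3 and NSG ATRXKD mouse 27. In the other 12 libraries this slope was between -0.17 and 0.0012. The 4 Y-linked genes checked summed to 13.1 to 34.3 FPKM in the NSG tumors and to at most 0.0115 FPKM in the Balb/c tumors. The study's methods list K7M2 and the hosts of both strains as female, which this RNA in the NSG tumors contradicts. The host strain and the sex of the tissue sequenced therefore cannot be told apart in any comparison of hosts.

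S100a8 and S100a9 encode the subunits of calprotectin, a calcium- and zinc-binding complex that fills the cytosol of neutrophils and also occurs in monocytes. They lie side by side on chromosome 3 (mm10, S100a8 at 90669071 to 90670034 on the plus strand and S100a9 at 90692630 to 90695721 on the minus strand), 22595 bases apart with 0 annotated genes between. They were the most abundant of the 10 transcripts per unit length, at means of 76.3 and 78.3 FPKM over the 18 tumors, and only 6.04% and 5.87% of all genes had a higher mean. Because their levels moved together, the 250 bases before each start site are shown, from RefSeq (GRCm38.p6, the same build as mm10), at chr3:90668821-90669070 for S100a8 and chr3:90695722-90695971 for S100a9, each read 5′ to 3′ along its own gene. Capitals mark matches, on either strand, to TTGCNNAA (a core that C/EBP factors bind), GAGGAA (a core of PU.1 sites) and TATAAA (the TATA box). C/EBP factors and PU.1 are known to act in granulocyte development.
S100a8: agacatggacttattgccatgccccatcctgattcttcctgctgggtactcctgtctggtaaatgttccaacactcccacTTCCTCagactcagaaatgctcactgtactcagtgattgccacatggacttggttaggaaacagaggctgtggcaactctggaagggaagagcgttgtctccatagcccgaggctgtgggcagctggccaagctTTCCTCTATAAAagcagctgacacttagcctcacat
S100a9: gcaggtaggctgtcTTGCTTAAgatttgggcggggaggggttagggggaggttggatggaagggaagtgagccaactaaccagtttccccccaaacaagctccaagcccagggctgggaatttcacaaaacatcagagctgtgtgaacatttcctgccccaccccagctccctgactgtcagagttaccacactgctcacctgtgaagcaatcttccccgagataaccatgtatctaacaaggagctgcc

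In S100a8 a GAGGAA match, read on the minus strand as TTCCTC, directly precedes TATAAA, so the capitals of these matches run on, and a second TTCCTC lies further upstream. The S100a9 window held TTGCTTAA and neither of the other motifs. All 10 genes had a start site in the same RefSeq table (Ly6g has a pair of them), and TTGCNNAA was found in the windows of 5 genes, GAGGAA in 7 and TATAAA in 2. Among all 32851 promoter windows of the same length, 9.56% held the first, 23.3% the second and 12.4% the third. These shares are per window, while the counts are per gene. The Il1r2 window, which held no match, precedes a start site 1325 bases downstream of the start in the annotation used for FPKM. A match is a string of letters and was not tested for binding.

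**Figure D1:**
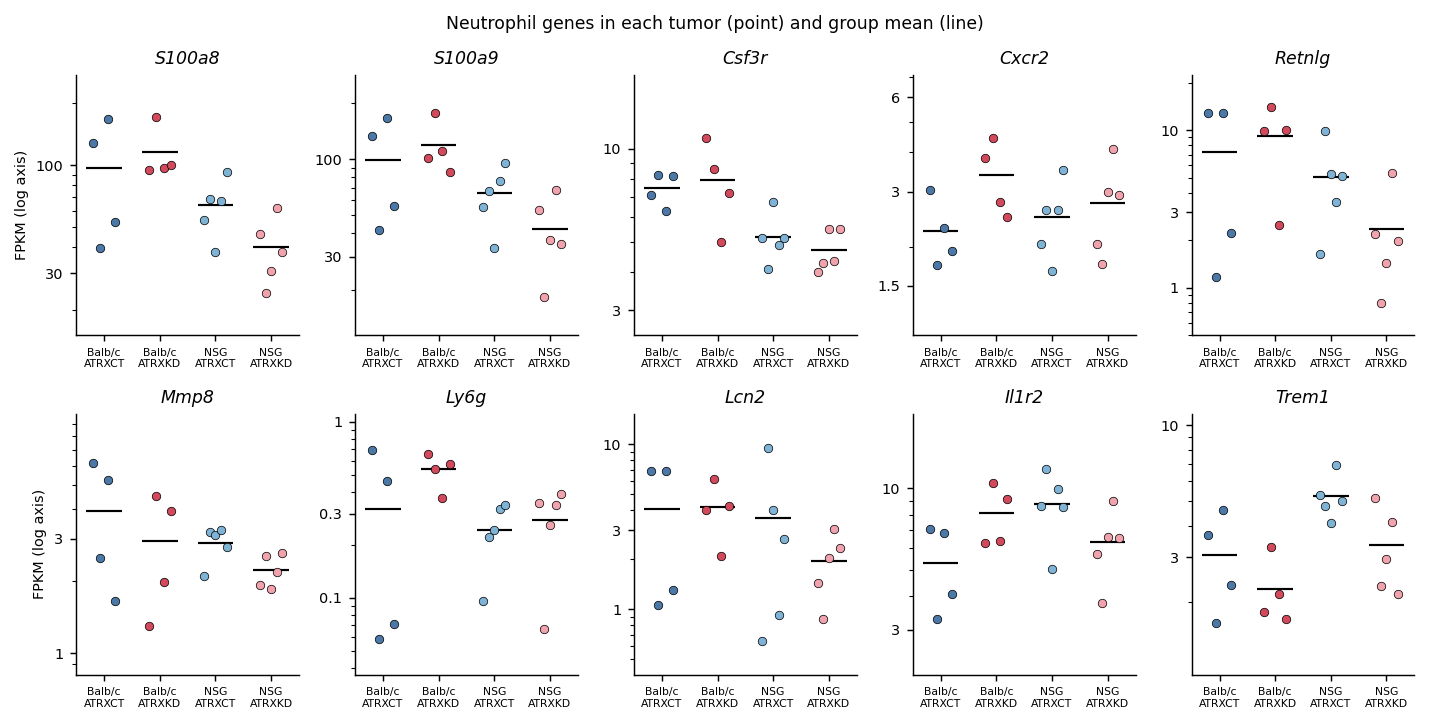
FPKM (log axis) of the 10 neutrophil genes in each tumor, with a point per tumor and a line at the mean of each of the 4 groups. S100a8 and S100a9 in the 4 Balb/c ATRXKD tumors (94.7 to 171 and 84.8 to 177 FPKM) sit above all 5 NSG ATRXKD tumors (24.1 to 62.2 and 18.2 to 67.9 FPKM), and in Balb/c ATRXCT tumors several genes fall into a high and a low pair.

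S100a8 was measured in Balb/c ATRXCT tumors at 128 FPKM (mouse 41), 39.7 (43), 168 (44) and 53.1 (45), and in Balb/c ATRXKD tumors at 94.7 (56), 171 (58), 97.0 (59) and 99.7 (60). In NSG mice it was at 54.3, 68.6, 38.2, 67.2 and 92.3 FPKM in ATRXCT tumors (mice 1 to 5) and at 46.4, 24.1, 30.8, 62.2 and 37.8 FPKM in ATRXKD tumors (mice 26 to 30). Every Balb/c ATRXKD tumor thus lay above every NSG ATRXKD tumor, whereas the hosts overlapped in ATRXCT tumors. The difference of hosts in ATRXKD tumors was 1.53 (SE 0.27) on the log2 (FPKM + 1) scale, a ratio of mean FPKM of 2.87, and passed the test (limma over 14669 genes, adjusted p = 0.0109). The two-sided exact permutation test gave p = 0.0159, where 0.00794 is the smallest value that 126 arrangements allow.

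S100a9 followed the same order. It was at 134, 41.7, 165 and 56.0 FPKM in Balb/c ATRXCT tumors (mice 41, 43, 44 and 45) and at 102, 177, 110 and 84.8 FPKM in Balb/c ATRXKD tumors (mice 56, 58, 59 and 60). In NSG mice it was at 55.4, 67.1, 33.4, 76.1 and 95.8 FPKM in ATRXCT tumors and at 53.3, 18.2, 36.7, 67.9 and 35.1 FPKM in ATRXKD tumors. The groups of ATRXKD tumors did not overlap here either, and the difference of hosts was 1.54 (SE 0.34), a ratio of mean FPKM of 2.81 (limma, adjusted p = 0.0367, exact permutation test p = 0.0159). The S100a9 call was lost when the Balb/c ATRXKD tumor with skin RNA (mouse 60) was left out (adjusted p = 0.0545), while the difference itself was then 1.68, and S100a8 was still called (1.58, adjusted p = 0.0289). S100a9 also missed the threshold without Balb/c ATRXKD mouse 56 (adjusted p = 0.0658), mouse 58 (0.0920) or mouse 59 (0.0654), or without NSG ATRXKD mouse 28 (0.0867) or mouse 30 (0.0981), and S100a8 passed it in all 9 fits that left out 1 tumor (adjusted p = 0.00588 to 0.0328).

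These were the only called members in any comparison, where a call meant an adjusted p under 0.05 and at least a 2-fold difference. Between hosts in ATRXKD tumors, 1.39% of the 14669 genes tested were called in either direction and the groups of 8.13% did not overlap, against 2 of the 10 neutrophil genes on each count. At an unadjusted p under 0.05, 6 of the 10 were higher in Balb/c mice and 0 lower, against 16.4% of all genes in either direction. Besides both S100 genes these were Csf3r, Retnlg, Ly6g and Lcn2. They are not separate evidence, since within groups Pearson r was 0.97 between the S100 genes and 0.90 between Retnlg and Lcn2. Ly6g rested on about 1.07 to 11.1 estimated fragments per tumor. The median difference of the 10 genes was 0.46, against -0.016 over all genes tested.

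**Figure D2:**
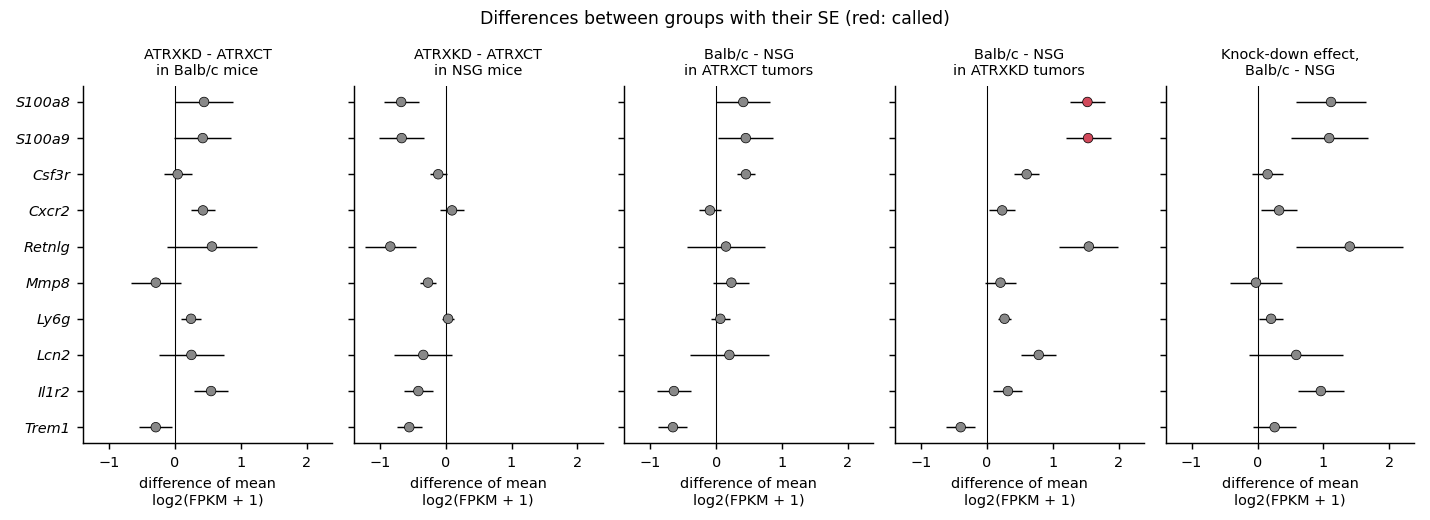
Differences of mean log2 (FPKM + 1) with their standard errors (bars) for the 10 neutrophil genes in the 4 comparisons of groups and for the difference of the knock-down effect between hosts (right). Called genes are red: S100a8 (1.53) and S100a9 (1.54) between hosts in ATRXKD tumors.

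In ATRXCT tumors the same comparison of hosts, made on other animals, called 0 of the 10 genes by limma, against 1.43% of 14828 genes. S100a8 was higher by 0.41 (SE 0.41) and S100a9 by 0.45 (SE 0.42) in Balb/c mice, with limma's adjusted p-values of 0.570 and 0.545. These sizes rested on single tumors: leaving out 1 tumor gave 0.071 (without Balb/c ATRXCT mouse 44) to 0.75 (without mouse 43) for S100a8, and 0.13 to 0.78 for S100a9 without the same mice. At an unadjusted p under 0.05 there were 3 genes, Csf3r higher and Il1r2 and Trem1 lower in Balb/c mice, against 19.3% of all genes, and 0 of the 10 separated the groups, against 7.57%. The Balb/c ATRXCT tumors formed a high pair (mice 41 and 44) and a low pair (mice 43 and 45) in 9 of the 10 genes, whereas Csf3r was higher in mice 43 and 45 (8.22 and 8.13 FPKM) than in mice 41 and 44 (7.10 and 6.29 FPKM). The low pair were also the tumors of this group whose values rose with transcript length and whose globin RNA was low (the 6 erythroid genes summed to 175 and 172 FPKM, against 934 and 833 FPKM in the high pair), and mouse 45 was the one with the most skin RNA. The part of these properties in the low values was not tested. Without the 6 libraries that favored long transcripts, which leaves 2 Balb/c and 4 NSG ATRXCT tumors, S100a8 was higher in Balb/c mice by 1.07 and called (adjusted p = 0.0428), and S100a9 by 1.03 (adjusted p = 0.0502), and within groups S100a8 had an r of -0.73 with that slope over 18 tumors. In ATRXKD tumors both genes were called without these libraries as well (1.57 each, limma, adjusted p = 0.0453 for S100a8 and 0.0414 for S100a9). That fit kept Balb/c mice 58 and 59 and NSG mice 26, 28, 29 and 30. Mouse 58 had the highest S100a8 of the 18 tumors (171 FPKM), and mouse 27, which was left out, the lowest (24.1 FPKM).

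Knock-down of Atrx was compared with the control shRNA in each host separately. In Balb/c mice limma called 0 of the 10 genes, against 0.0068% of 14701 genes. At an unadjusted p under 0.05 only Cxcr2 was reached (4.14% of all genes were), higher in ATRXKD tumors by 0.42 (SE 0.19), with an adjusted p of 0.999 and an exact permutation p of 0.114. For none of the 10 did the groups separate, against 3.18% of all genes. Of the differences 8 were positive and 2 negative, with a median of 0.34 against -0.0032 over all genes. The sizes rested on single tumors, since leaving out 1 tumor moved S100a8 from 0.44 to between 0.098 (without Balb/c ATRXCT mouse 43) and 0.78 (without mouse 44), S100a9 from 0.42 to between 0.086 and 0.74 without the same mice, and Retnlg from 0.56 to between 0.068 (without mouse 43) and 1.01 (without Balb/c ATRXKD mouse 59). Directions were not firm either, since without the 6 libraries that favored long transcripts S100a8 (-0.18), S100a9 (-0.085), Retnlg (-0.93), Lcn2 (-0.73), Ly6g (-0.11) and Csf3r (-0.018) changed sign.

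In NSG mice limma again called 0 of the 10 genes, against 0.464% of 14654 genes. Lower values in ATRXKD tumors reached an unadjusted p under 0.05 for 3 of the 10, and 26.3% of all genes passed that level in either direction. The differences were -0.67 for S100a8 (SE 0.27, limma, adjusted p = 0.134), -0.55 for Trem1 (SE 0.19, adjusted p = 0.0979) and -0.27 for Mmp8 (SE 0.12, adjusted p = 0.168). The exact permutation p-values were 0.0635, 0.0556 and 0.0476. The groups of 0 of the 10 genes separated, against 7.5% of all genes, and 8 of the 10 differences were negative, with a median of -0.38 against -0.0014. Macrophage RNA moved with them: of 12 macrophage and monocyte genes 9 were lower and 1 higher at an unadjusted p under 0.05, with a median of -0.47, although 0 were called, and their summed level was 1995 to 2924 FPKM in ATRXCT and 1524 to 2217 FPKM in ATRXKD tumors. Csf1r (253 and 321 FPKM) was the gene that was higher, and the defining C1qa (608 and 386 FPKM) was lower. The summed Y-linked RNA was 24.2 to 34.3 FPKM in NSG ATRXCT and 13.1 to 21.2 FPKM in NSG ATRXKD tumors. The part of either in the S100a8 and Trem1 values was not tested.

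The host difference of the knock-down effect was itself tested in a fit of all 18 tumors. limma called 0 of the 10 genes and 0% of 14803 genes in all, while 10.3% of all genes had an unadjusted p under 0.05. Il1r2 alone was among them, with a knock-down difference of 0.55 in Balb/c and -0.41 in NSG mice, apart by 0.96 (SE 0.35, adjusted p = 0.381, exact permutation p = 0.0200). For S100a8 the differences were 0.44 and -0.67, apart by 1.12 (SE 0.53, adjusted p = 0.485, exact permutation p = 0.0808). The host comparison in ATRXKD tumors and both knock-down comparisons share tumors, so these values are not separate evidence, and the host difference of S100a8 was not shown to differ between ATRXKD and ATRXCT tumors.

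Among the receptors, Csf3r, which binds granulocyte colony-stimulating factor, was at 7.10, 8.22, 6.29 and 8.13 FPKM in Balb/c ATRXCT tumors, 10.8, 8.57, 5.01 and 7.17 in Balb/c ATRXKD tumors, 5.15, 4.09, 6.71, 4.90 and 5.15 in NSG ATRXCT tumors and 3.99, 4.26, 5.51, 4.34 and 5.49 in NSG ATRXKD tumors. It was higher in Balb/c mice by 0.45 (SE 0.14) in ATRXCT and by 0.60 (SE 0.19) in ATRXKD tumors, and missed the threshold in both (limma, adjusted p = 0.129 and 0.133, exact permutation p = 0.0238 and 0.0317). The hosts overlapped by few tumors in either comparison. Cxcr2, the receptor of the chemokines that attract neutrophils, was at 1.66 to 4.44 FPKM, with means of 2.25 ± 0.57 (SD, n = 4) in Balb/c ATRXCT, 3.39 ± 0.91 (n = 4) in Balb/c ATRXKD, 2.49 ± 0.70 (n = 5) in NSG ATRXCT and 2.76 ± 0.92 (n = 5) in NSG ATRXKD tumors. No comparison of Cxcr2 passed the adjusted threshold.

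Il1r2 encodes the decoy receptor for interleukin 1, and Trem1 an activating receptor of neutrophils and monocytes that signals through Tyrobp. Il1r2 was at 3.29 to 7.07 FPKM in Balb/c ATRXCT, 6.29 to 10.5 in Balb/c ATRXKD, 5.05 to 11.8 in NSG ATRXCT and 3.77 to 9.01 in NSG ATRXKD tumors, all of which overlapped. Trem1 ran against the S100 genes between hosts. Its level was 3.68, 1.64, 4.62 and 2.33 FPKM in Balb/c ATRXCT tumors and 5.29, 4.79, 4.08, 6.93 and 5.01 FPKM in NSG ATRXCT tumors, a difference of -0.66 (SE 0.22, limma, adjusted p = 0.150, exact permutation p = 0.0159). In ATRXKD tumors it was at 1.83, 3.30, 2.13 and 1.71 FPKM in Balb/c mice and 5.14, 2.31, 2.95, 4.15 and 2.15 FPKM in NSG mice, a difference of -0.40 (SE 0.22, adjusted p = 0.410). It was the one gene of the 10 whose host difference was negative in ATRXKD tumors.

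Retnlg encodes resistin-like gamma, a secreted protein of late neutrophils, and had the widest range of the 10, from 0.797 to 14.1 FPKM or 17.7-fold. It was at 12.9, 1.17, 12.8 and 2.23 FPKM in Balb/c ATRXCT, 9.87, 14.1, 2.51 and 10.04 in Balb/c ATRXKD, 1.63, 9.83, 5.27, 3.49 and 5.09 in NSG ATRXCT and 2.197, 0.797, 1.44, 5.36 and 1.99 in NSG ATRXKD tumors. Balb/c ATRXKD mouse 59 was the tumor that lay within the NSG ATRXKD range. The host difference in ATRXKD tumors was as large as that of the S100 genes, 1.55, but with an SE of 0.45 (limma, adjusted p = 0.102, exact permutation p = 0.0397). Leaving out 1 tumor moved it to between 1.30 and 2.00 (limma, adjusted p = 0.0144 to 0.218 over 9 fits). The highest of these, 2.00 and called, was the fit without mouse 59, whose removal takes away the overlap.

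Of the granule proteins, Mmp8 is neutrophil collagenase and Lcn2 is lipocalin 2, which withholds bacterial iron carriers and is also made by epithelium. Mmp8 was at 1.31 to 6.21 FPKM and its 4 groups overlapped, with means of 3.91 ± 2.18 (SD, n = 4) in Balb/c ATRXCT, 2.94 ± 1.54 (n = 4) in Balb/c ATRXKD, 2.88 ± 0.48 (n = 5) in NSG ATRXCT and 2.22 ± 0.35 (n = 5) in NSG ATRXKD tumors. Lcn2 was at 6.87, 1.06, 6.86 and 1.30 FPKM in Balb/c ATRXCT, 3.99, 6.18, 2.11 and 4.24 in Balb/c ATRXKD, 0.641, 9.54, 3.98, 0.923 and 2.66 in NSG ATRXCT and 1.44, 0.871, 2.02, 3.08 and 2.33 in NSG ATRXKD tumors. Of the tumors with much skin RNA, mouse 45 was among the low pair of its group, and mouse 60 had the second highest and NSG ATRXKD mouse 29 the highest Lcn2 of its group, while NSG ATRXKD mice 26 and 27 were the lowest of theirs. The part of skin RNA in Lcn2 was not tested. Lcn2 was higher in Balb/c ATRXKD than in NSG ATRXKD tumors by 0.79 (SE 0.27, limma, adjusted p = 0.165, exact permutation p = 0.0476).

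Ly6g encodes the surface protein by which mouse neutrophils are usually sorted, and was the scarcest of the 10, at 0.0584 to 0.692 FPKM. These values rest on about 1.07 to 11.1 estimated fragments per tumor, and 4 tumors (Balb/c ATRXCT mice 43 and 45, NSG ATRXCT mouse 1 and NSG ATRXKD mouse 27) lay at or under the floor of 3 fragments. Differences of Ly6g were therefore hardly detectable at this depth. The difference between hosts in ATRXKD tumors was 0.27 (SE 0.096, limma, adjusted p = 0.189), from 0.370 to 0.656 FPKM in Balb/c mice against 0.0661 to 0.386 FPKM in NSG mice. No stretch of 75 bases of Ly6g, S100a8, S100a9, Retnlg, Mmp8, Lcn2, Il1r2 or Trem1 transcripts occurs exactly in another gene's transcripts (GENCODE M21), while 3.13% of such stretches of Csf3r and 1.81% of Cxcr2 do. Inexact matches, sequence outside these transcripts and variants of the host strains were not checked.

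**Figure D3:**
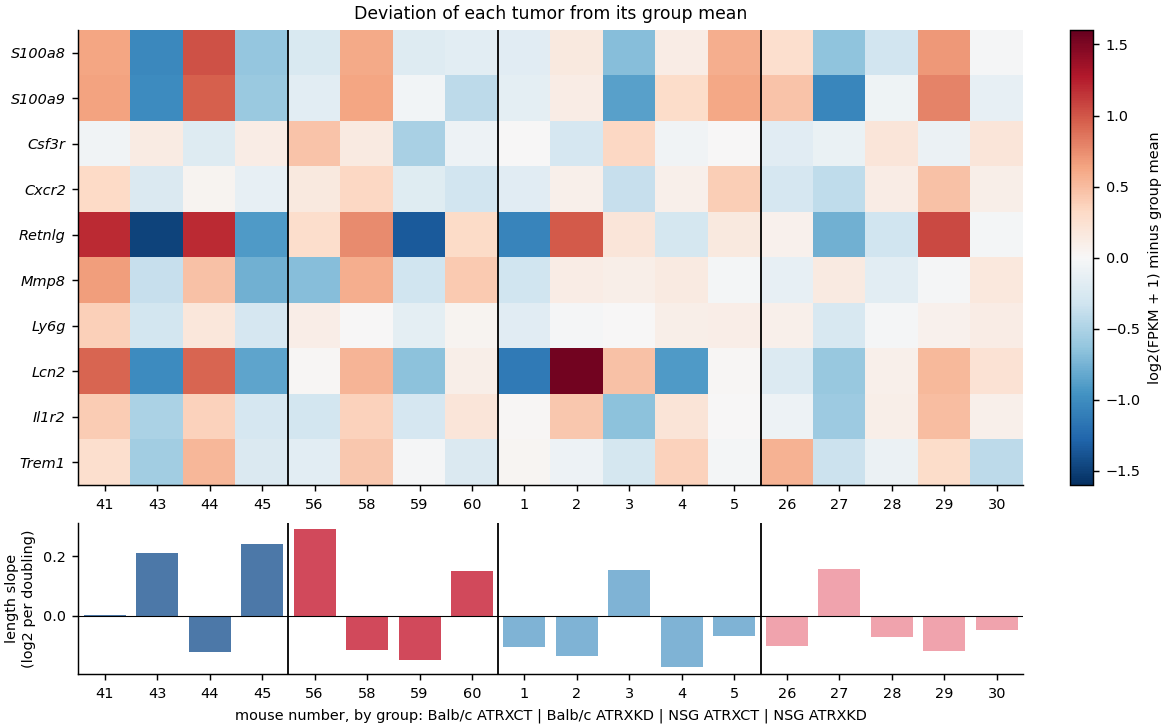
Deviation of log2 (FPKM + 1) of each neutrophil gene from the mean of its group in each of the 18 tumors (top, red above and blue below the mean) and the slope of each library with transcript length (bottom, log2 per doubling of length). Balb/c ATRXCT mice 43 and 45 and NSG ATRXKD mouse 27 are below their group mean in most genes and have positive slopes (0.21, 0.24 and 0.16), while Balb/c ATRXKD mouse 56 has the steepest slope (0.29) at a mean standardised deviation of -0.015 and mouse 59 a negative slope (-0.15) at -0.84.

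Within groups, 9 of the 10 genes varied together from tumor to tumor. The correlations are descriptions over 18 tumors, of deviations from group means, and the genes of a tumor share its library and depth. Among those 9 genes Pearson r lay between 0.24 (Cxcr2 and Mmp8) and 0.97. Pearson r was 0.97 between S100a8 and S100a9, 0.90 between Retnlg and Lcn2 and 0.83 between S100a8 and Il1r2. Csf3r stood apart, with r between -0.37 (Trem1) and 0.12 (Cxcr2) with the other genes. Mean standardised deviations of the 10 genes were highest in Balb/c ATRXCT mouse 41 (1.16) and lowest in mouse 43 of the same group (-1.25). Their r with the length slope was -0.57, and for single genes r with that slope was -0.73 for S100a8 (392 nt), -0.78 for S100a9 (524 nt), -0.73 for Trem1 (3025 nt) and 0.63 for Csf3r (3948 nt). With the trend along transcript length removed from each library, the host differences in ATRXKD tumors were 1.65 for S100a8 (adjusted p = 0.00220) and 1.65 for S100a9 (adjusted p = 0.00498).

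**Figure D4:**
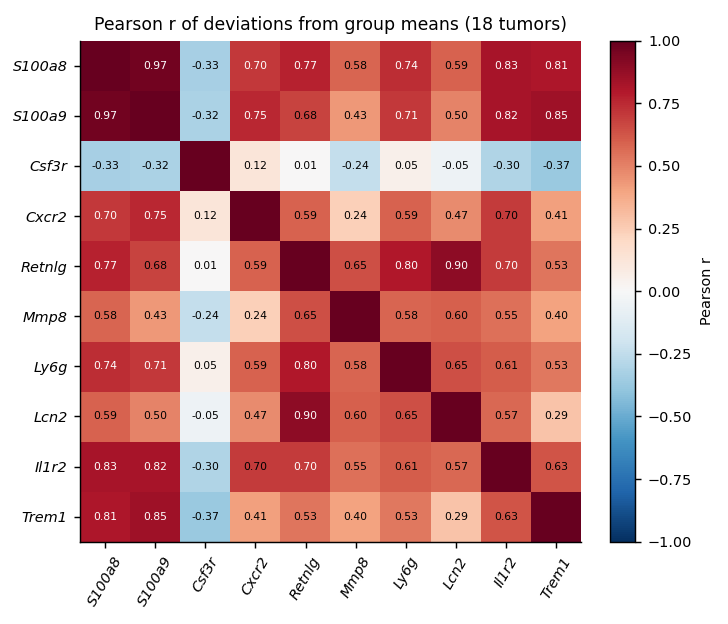
Pearson r between the neutrophil genes over the deviations of 18 tumors from their group means. The pair S100a8 and S100a9 reaches 0.97 and Retnlg and Lcn2 0.90, while the row of Csf3r runs from -0.37 to 0.12.

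Other markers of neutrophils give the wider pattern. The mean deviation of 22 further genes of mature neutrophils had an r of 0.91 with that of the 10 genes, against 0.53 for 12 granule genes of precursors, 0.57 for the macrophage list and 0.65 for the erythroid list. The 10 single genes most like them were Stfa2l1 (r = 0.86), A930005H10Rik (0.85), Basp1 (0.82), Sap18b (0.82), Gm5483 (0.81), Rsad2 (0.81), Clec4e (0.80), 1700007K13Rik (0.80), Adipor1 (0.80) and Isca1 (0.79). Stfa2l1, a stefin A-like protease inhibitor, and Clec4e, the lectin receptor Mincle, were in the mature list already. Between hosts in ATRXKD tumors, limma called 0 of the 22 mature genes, with 9 higher and 1 lower in Balb/c mice at an unadjusted p under 0.05 and a median of 0.38 against -0.016 over all genes. Of all genes, 1.39% were called and 16.4% had an unadjusted p under 0.05, in either direction. In ATRXCT tumors 0 of 21 tested were called, with 4 higher and 4 lower, and the median was -0.025. There 1.43% of all genes were called and 19.3% had an unadjusted p under 0.05.

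Among the most abundant mature genes, Mmp9, a gelatinase that macrophages also make, was at 33.6 ± 3.24 FPKM (SD, n = 4) in Balb/c ATRXKD and 45.2 ± 3.44 FPKM (n = 5) in NSG ATRXKD tumors, a difference of -0.42 (limma, adjusted p = 0.0457) and so opposite to S100a8. Padi4, the enzyme that citrullinates histones in neutrophil traps, was named after its values were seen. It was at 1.05 ± 0.59 FPKM (n = 4) against 0.136 ± 0.086 FPKM (n = 5), higher in Balb/c mice by 0.81 on the log2 (FPKM + 1) scale (limma, adjusted p = 0.0234), below the 2-fold limit, which the pseudocount makes hard to reach at such levels. Cxcr1, a second chemokine receptor of neutrophils, was scarce and was not called in any comparison. It was listed at 0 in all 10 NSG tumors. In Balb/c mice it was at 0 to 0.263 FPKM in ATRXCT and at 0.0690 to 0.511 FPKM in ATRXKD tumors.

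The precursor genes differed widely in level. Elane, Mpo and Camp, made in the marrow by immature cells, had group means of 0.0524 to 0.532 FPKM. The called genes of this list were Ctsg and Chil3. Ctsg, cathepsin G, which mast cells also make, was at 4.74 ± 2.78 FPKM (SD, n = 4) in Balb/c and 0.361 ± 0.193 FPKM (n = 5) in NSG ATRXCT tumors, higher by 1.93 (SE 0.32, limma, adjusted p = 0.00727). All 6 mast cell genes were higher there at an unadjusted p under 0.05 and 1 was called, with summed levels of 119 to 310 FPKM in Balb/c and 19.6 to 120 FPKM in NSG ATRXCT tumors, and their part in Ctsg was not tested. Of all genes, 19.3% had an unadjusted p under 0.05 and 1.43% were called in that comparison. Chil3, a chitinase-like protein of neutrophil precursors and macrophages, was lower in Balb/c ATRXKD than in NSG ATRXKD tumors, at 0.309 ± 0.216 FPKM (n = 4) and 2.37 ± 1.55 FPKM (n = 5), a difference of -1.28 (adjusted p = 0.0247). Ltf, lactoferrin, and Olfm4, olfactomedin 4, were named after their values were seen: both were higher in Balb/c ATRXKD tumors, by 0.53 (adjusted p = 0.0170) and 0.60 (adjusted p = 0.00454), at means under 1 FPKM.

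Of the 14 ligands and partners of these receptors and proteins, Pglyrp1, a peptidoglycan-binding granule protein described as a ligand of Trem1, was called in both comparisons of hosts. Of all genes, 1.43% were called in ATRXCT and 1.39% in ATRXKD tumors. Pglyrp1 was the only called gene of this list. It was at 5.49 ± 1.65 FPKM (SD, n = 4) in Balb/c and 2.00 ± 0.98 FPKM (n = 5) in NSG ATRXCT tumors, and at 6.996 ± 1.85 FPKM (n = 4) in Balb/c and 1.10 ± 0.31 FPKM (n = 5) in NSG ATRXKD tumors. The differences were 1.13 (limma, adjusted p = 0.0390) and 1.91 (adjusted p = 7.6e-05). Cxcl5, a Cxcr2 ligand, was at 88.0 ± 15.1 FPKM (n = 4) in Balb/c ATRXKD tumors against 45.3 ± 13.3 (n = 4) in Balb/c ATRXCT and 51.5 ± 13.7 (n = 5) in NSG ATRXKD tumors. It was higher by 0.97 with the knock-down in Balb/c mice (adjusted p = 0.413) and higher by 0.78 in Balb/c than in NSG ATRXKD tumors (adjusted p = 0.0487, below the 2-fold limit). Cxcl1 and Il1b, which with Tyrobp and Cxcl5 were the most abundant of this list, had no adjusted p under 0.05 between hosts. Csf3, the ligand of Csf3r, had group means of 0.17 to 0.48 FPKM. Between ATRXKD and ATRXCT tumors limma called 0 of the 14 in either host, with 1 gene higher in Balb/c mice and 1 higher and 4 lower in NSG mice at an unadjusted p under 0.05. Of all genes, 0.0068% were called and 4.14% had an unadjusted p under 0.05 in Balb/c mice. In NSG mice these shares were 0.464% and 26.3%.

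**Figure D5:**
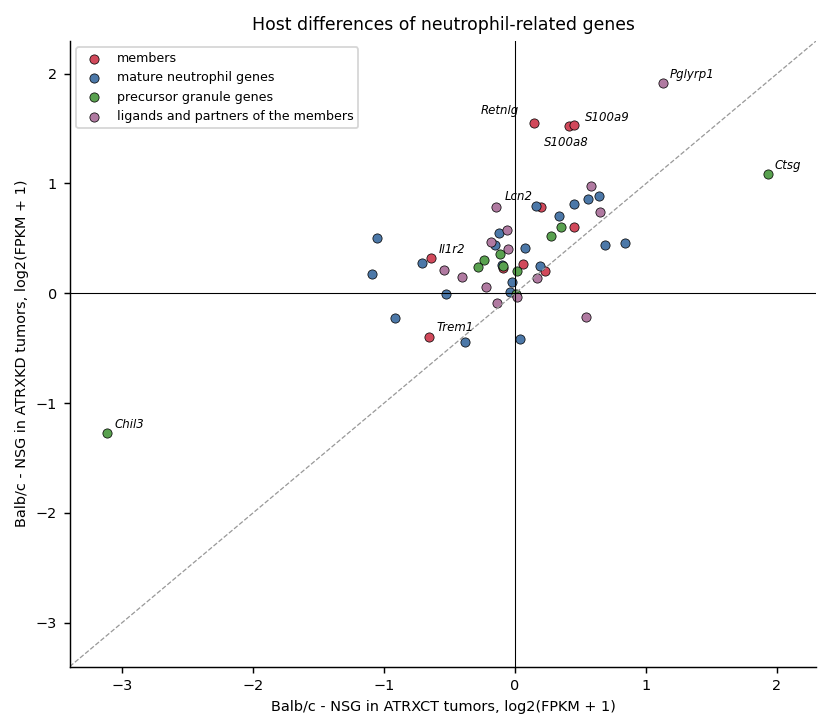
Difference of mean log2 (FPKM + 1) between Balb/c and NSG mice in ATRXCT tumors (x axis) and ATRXKD tumors (y axis), with a point per gene for the 10 neutrophil genes (members, red), further mature and precursor genes and ligands and partners, and a dashed line of equality. S100a8 (0.41 and 1.53), S100a9 (0.45 and 1.54) and Retnlg (0.15 and 1.55) lie above the line, and Pglyrp1 is positive on both axes (1.13 and 1.91).

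Other cell types were read beside these values. Of the eosinophil genes, the defining Epx was listed at 0 in all but 1 tumor, where it was at 0.0197 FPKM, and all 6 summed to at most 3.51 FPKM. Between hosts in ATRXKD tumors, 0 of the 12 macrophage and monocyte genes were called, with 2 higher at an unadjusted p under 0.05, and their sums were 1658 to 2309 FPKM in Balb/c and 1524 to 2217 FPKM in NSG mice. Of all genes, 1.39% were called and 16.4% had an unadjusted p under 0.05 in that comparison, and 1.43% were called between hosts in ATRXCT tumors. Within groups, r with the macrophage list over 18 tumors was 0.51 for S100a8 and 0.48 for S100a9, and the part of macrophage RNA in their host difference was not tested. NSG mice lack mature T cells, and 5 of 6 T cell genes were called higher in Balb/c mice in both comparisons. Of the 6 endothelial genes 1 was called higher in Balb/c mice in ATRXCT and 0 in ATRXKD tumors. At an unadjusted p under 0.05, 4 of them were higher in ATRXCT and 3 in ATRXKD tumors, against 19.3% and 16.4% of all genes in either direction. The erythroid sums, which would rise with blood in the tissue, were 170 to 981 FPKM in Balb/c and 250 to 523 FPKM in NSG ATRXKD tumors. Of the 6 erythroid genes 1, the alpha globin Hba-a2, was called higher in Balb/c mice in both comparisons, at 56.8 and 0.0485 FPKM in ATRXKD tumors. The alpha globin Hba-a1 had the opposite order, at means of 103 FPKM in Balb/c and 126 FPKM in NSG ATRXKD tumors, and 99.1 and 251 FPKM in ATRXCT tumors. Why these globin genes differed in direction was not tested. Within groups, r with the erythroid list was 0.69 for S100a8 and 0.65 for S100a9, and the part of blood in their values was not tested.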

How the data were processed

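RNA of 18 tumors was sequenced as paired reads from libraries depleted of ribosomal RNA and stranded. The authors used STAR on the mm10 genome, dropped poorly mapped and duplicate reads, and had Cufflinks estimate FPKM for RefSeq genes. The deposited numbers are on a log2 (FPKM + 1) scale, as read from the values themselves: base 2 gave sums of 1.10 to 1.13 times the expected total over libraries and base e gave 8.45 to 11.2. Whole reads could not be recovered (35.5 to 41.3% of low values lay within 0.1 of a whole read, where 20% is the share chance gives), so no count test was run, and each depth is the total that brought low FPKM values of single-transcript genes closest to whole fragments, an estimate only.

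Groups came from the labels. Genes averaging 0.1 FPKM or more over the compared tumors were tested with limma 3.58.1 (R 4.3.3, trended prior, two-sided, Benjamini-Hochberg adjustment over all genes tested), each comparison on its own 2 groups and the host difference of the knock-down effect on all 4. Calls required an adjusted p under 0.05 and at least a 2-fold difference. Fold changes are on the log2 (FPKM + 1) scale, which understates changes of low genes. Single genes were also compared by exact permutation over tumors. In simulated data, 96 to 99.5% of 200 genes changed by 2 on the log2 scale were recovered. Those genes had a mean log2 (FPKM + 1) above 2, and the noise was independent between genes. The share therefore does not apply to smaller changes, to scarcer genes or to variation that genes of a tumor share. The genes followed and the marker lists were chosen with earlier results of these data known. Genes named from the lists were those called and otherwise the most abundant of a list, besides defining genes of a cell type or ligands of a receptor, and those said to be named after their values were seen. Alternatives were the pseudocount, filter, scaling, library weights, a joint fit, removal of the length trend and leaving out libraries. Different mice are the replicates. Sequences came from RefSeq (GRCm38.p6).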

Additional observations from a re-analysis of the deposited data

Results flagged for a closer look

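S100a8 in the Balb/c ATRXKD tumor of mouse 58 was at 171 FPKM, while the other 3 tumors of the group lay between 94.7 and 99.7 FPKM, so that the gap to the nearest tumor took up most of the group's range. S100a9 was highest in the same tumor, at 177 FPKM. It was 1 of 40 sets of tumors checked in this way, of which chance alone is expected to give about 2. Without mouse 58 the host difference of S100a8 in ATRXKD tumors was 1.32 and still called (limma, adjusted p = 0.0282).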

How the results depend on the processing

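Of 965 differences of the 10 neutrophil genes under alternatives, 915 kept their direction and side of the threshold, 40 changed sign, 8 lost a call and 2 gained one, and every change of sign was of a difference that was not called. Between hosts in ATRXKD tumors the 2 calls became 1 (S100a8) with no filter on low genes (S100a9, adjusted p = 0.0669), and were 1 to 2 when a tumor was left out. They also became 1 without the skin-rich Balb/c libraries (mice 45 and 60). In ATRXKD tumors that is the same fit as leaving out mouse 60, so its lost call is counted under both settings. The NSG ATRXKD tumors with raised skin RNA (mice 26, 27 and 29) stayed in that fit. In ATRXCT tumors 1 gene (S100a8) was called without the 6 libraries that favored long transcripts, a choice made after seeing the data. The cause was not tested. Among the effects of knock-down in Balb/c mice, that choice gave -0.18 for S100a8, -0.085 for S100a9, -0.018 for Csf3r, -0.93 for Retnlg, -0.11 for Ly6g and -0.73 for Lcn2, and for the host difference of the effect -0.015 for Csf3r, -0.33 for Retnlg, -0.22 for Ly6g and -0.66 for Lcn2. Library weights gave -0.032 for Csf3r and -0.00043 for Lcn2 in Balb/c mice, 0.27 for Lcn2 in NSG mice, and -0.042 for Ly6g and -0.34 for Lcn2 in the host difference. Without the skin-rich libraries Lcn2 was at -0.063 in Balb/c mice.

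When 1 tumor was left out, the effect of knock-down ranged in Balb/c mice from -0.11 to 0.22 for Csf3r and from -0.087 to 0.56 for Lcn2. In NSG mice it ranged from -0.021 to 0.20 for Cxcr2, from -0.0071 to 0.10 for Ly6g and from -0.62 to 0.048 for Lcn2. The difference of hosts in ATRXCT tumors ranged from -0.20 to 0.0027 for Cxcr2, from -0.25 to 0.64 for Retnlg, from -0.067 to 0.16 for Ly6g and from -0.11 to 0.59 for Lcn2, and the host difference of the effect from -0.28 to 0.20 for Mmp8. Over all genes, calls in NSG mice moved from 25 higher and 43 lower to 63 and 163 with a pseudocount of 0.1, 79 and 122 with library weights and 547 and 447 without the fold limit. Leaving out 1 NSG tumor gave 16 and 23 (without ATRXCT mouse 4), 38 and 86 (without ATRXKD mouse 26), 15 and 19 (mouse 28), 18 and 26 (mouse 29) and 15 and 12 (mouse 30). Between hosts they moved, with the pseudocount of 0.1, from 131 and 81 to 263 and 153 in ATRXCT and from 165 and 39 to 346 and 78 in ATRXKD tumors, and without the fold limit to 310 and 162, and 411 and 123. In Balb/c mice calls went from 0 higher and 1 lower to 4 and 11 with library weights, 2 and 4 in a joint fit, 4 and 3 without the 6 libraries, 1 and 1 without the skin-rich libraries, and 0 and 0 with no filter or one at 1 FPKM. For the host difference of the effect they went from 0 and 0 to 124 and 71 with library weights and 1 and 1 without the 6 libraries. No paired analysis was possible because the groups share no mouse number. Depth limits mainly Ly6g, whose values rest on few fragments.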

Other observations

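Chil3, a chitinase-like protein of neutrophil precursors and of alternatively activated macrophages, varied more among the NSG ATRXCT tumors than any neutrophil gene followed here. It was at 2.44 to 53.8 FPKM in that group, with a mean of 23.5 ± 27.2 FPKM (SD, n = 5), against 0.154 to 0.658 FPKM in Balb/c ATRXCT tumors. The difference between hosts did not pass the test (-3.12, SE 0.83, limma, adjusted p = 0.0773).

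Mmp9 was higher in NSG ATRXKD than in NSG ATRXCT tumors, at 45.2 ± 3.44 and 29.5 ± 4.93 FPKM (SD, n = 5 each), a difference of 0.61 (limma, adjusted p = 0.0148, below the 2-fold limit), while S100a8 and Trem1 were lower there without passing the test. Tyrobp, the adaptor of Trem1, was at 258 ± 86.0 FPKM in NSG ATRXKD and 436 ± 82.5 FPKM in NSG ATRXCT tumors, a difference of -0.79 (adjusted p = 0.0477), also below that limit. Il1a, an agonist bound by Il1r2 and named after its values were seen, had a difference of -0.96 in the same comparison (adjusted p = 0.0215).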
